A study of Bos taurus with 30 samples.

Results

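The genes of cholesterol synthesis, uptake and efflux were followed in bovine corpus luteum, the ovarian gland that makes progesterone from cholesterol. The list held 38 genes: 21 of synthesis, from the supply of acetyl-CoA to the last sterol reductase, and 17 of uptake, control by the SREBP factors, movement inside the cell and efflux. Of the 38, 30 were found on the array by the symbol that the platform annotation gives, 18 of them synthesis genes, out of 9155 genes with 1 symbol in all. The other 8 (IDI1, HSD17B7, SC5D, LRP1, STARD3, STARD4, ABCA1 and ABCG1) were not analysed here, so the efflux step is represented by a carrier protein and the LXR receptors and not by the ABC pumps of the list. A gene with several probe sets, as 10 of the 30 had, was read from its brightest probe set, by the mean of all 30 arrays.

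The tissue came from 30 Angus crossbred heifers in a factorial design with completely random assignment, 5 per group and 1 Affymetrix GeneChip Bovine Genome Array per heifer. Glands were young (day 4 of the estrous cycle) or mature (day 11). The 2 control groups (day 4, 0 h and day 11, 0 h) received saline, and the other 4 received prostaglandin F2α (PGF2α) and gave tissue 4 h or 24 h later; the controls are called untreated below. The labels name no age, genotype or dose, and no saline group at 4 h or 24 h, so the 0 h animals served as controls at both times, and the 4 h and 24 h comparisons within a day share those 5 control arrays. PGF2α is the uterine signal that ends the life of the mature gland, whereas the early gland is known for its resistance to it, and the series set the response of the 2 stages side by side.

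Luteal cells take most of their cholesterol from lipoproteins in the blood, through receptors such as SCARB1, and can also build it from acetyl-CoA. The building route runs through mevalonate to farnesyl diphosphate, then through squalene and lanosterol to cholesterol. When membranes of the endoplasmic reticulum are poor in sterol, SCAP carries the SREBP proteins (made from SREBF1 and SREBF2) to the Golgi, where they are cut and released to switch on nearly every gene of this route. INSIG1 and INSIG2 hold SCAP back when sterol is plentiful. Oxidised sterols activate the LXR receptors (NR1H3 and NR1H2), which favour removal of cholesterol by way of carriers such as APOE. Steroid-making cells send much of their cholesterol on to STAR and CYP11A1 at the mitochondrion.

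All values below are log2 signals, and a difference of 1.00 is a doubling of signal on that scale. They are RMA values and compress large changes of very bright probe sets, and no level of a probe set is set against that of another. A gene is called higher or lower when its adjusted p in limma, over all 24016 probe sets tested, was under 0.05. No member lay among the dimmest 30% of probe sets. The array medians ran from 6.01 to 6.16, and arrays of a group correlated at 0.978 to 0.994. On the first principal component, the first replicate of day 4, 24 h had a place between the young controls (45.7 against 42.1 to 50.7), though not on the second (4.28 against -5.85 to 1.97), and day 11, 4 h replicate 1 had the lowest array weight of the 30 (0.318). Changes in the number of members called without these arrays are given or covered by a range below, and the differences include them unless stated. Markers of luteal cells were bright: STAR averaged 12.87 in the day 4 controls and 13.60 in the day 11 controls, and CYP11A1 averaged 13.47 in the day 11 controls, on a scale that ended at 14.35. In a piece of tissue, fewer cells of a type and less RNA per cell cannot be told apart.

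In untreated glands most genes of the route were higher on day 11 than on day 4. Of the 30 members, 21 were higher and 1 was lower on day 11, against 17.9% of all genes called higher and 26.5% called lower. Synthesis genes accounted for 13 of the 21, with a median difference over the 18 of 0.69 where the median of all genes was -0.02. All 3 uptake genes and all 3 efflux genes were also higher.

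Among the genes that supply acetyl units, ACLY, which makes cytosolic acetyl-CoA from citrate, read 12.06, 12.26, 12.14, 12.14 and 12.10 in the day 4 controls. The day 11 controls read 13.41, 13.14, 13.47, 12.79 and 13.37, every one above every day 4 value. The difference was 1.10 ± 0.14 (SE), or 2.14-fold, with an adjusted p = 4.9e-07. AACS, which makes acetoacetyl-CoA from ketone bodies, was higher by 0.80 ± 0.16 (SE), adjusted p = 0.000244. ACAT2, the thiolase that joins acetyl-CoA units, differed by 0.31 with overlapping groups and was not called (adjusted p = 0.162).

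The mevalonate steps were mixed. HMGCS1, the HMG-CoA synthase that opens the route, differed by 0.43 ± 0.15 (SE), adjusted p = 0.0235, with no overlap between the groups. Leaving out the lowest young control, replicate 1, ended that call (adjusted p = 0.0568). MVK, the mevalonate kinase, was higher by 0.75 ± 0.17 (SE), adjusted p = 0.000884, and MVD, which makes isopentenyl diphosphate, by 0.73 ± 0.16 (SE), adjusted p = 0.000498. PMVK, the second kinase, and FDPS, the farnesyl diphosphate synthase, differed by 0.32 and 0.33 and were not called. GGPS1, which draws farnesyl diphosphate off toward geranylgeranyl groups for proteins, was the 1 member that was lower, by -0.37 ± 0.10 (SE), adjusted p = 0.00403. Its day 4 controls read 7.38, 7.53, 7.58, 7.46 and 7.23 and its day 11 controls 7.11, 7.08, 7.08, 6.87 and 7.18, without overlap.

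Of the 9 squalene and sterol genes, 8 were higher on day 11. TM7SF2, a sterol reductase that acts right after CYP51A1, differed most. Its day 4 controls read 9.69, 10.16, 10.04, 9.96 and 9.91, and its day 11 controls ran from 11.52 to 12.26 with a mean of 11.95. The lowest mature gland was thus more than 1 log2 unit above the highest young one, and the difference of 2.00 ± 0.23 (SE), 4.00-fold, had an adjusted p = 1.98e-07. CYP51A1, the lanosterol demethylase, was higher by 0.82, NSDHL and FDFT1, a sterol dehydrogenase and the squalene synthase, by 0.80 and 0.78, and SQLE, the squalene epoxidase, by 0.76. As means of all probe sets FDFT1 differed by 0.52 and HMGCS1, above, by 0.79. DHCR7, the reductase of the last step, LSS, which folds squalene epoxide into lanosterol, and MSMO1, a sterol methyl oxidase, differed by 0.64, 0.59 and 0.53. The DHCR7 call also ended when replicate 1 of the young controls was left out (adjusted p = 0.0575). EBP, the sterol isomerase, differed by 0.46 with no overlap and was not called (adjusted p = 0.0597).

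Of the SREBP genes, SREBF2, the factor best known for sterol genes, was higher on day 11 by 0.53 ± 0.12 (SE), adjusted p = 0.000596, and SCAP by 0.61 ± 0.17 (SE), adjusted p = 0.00649, or 0.29 as the mean of its probe sets. SREBF1, whose products are better known for fatty acid genes, differed by -0.18 and was not called. INSIG1 varied widely in the day 11 controls, at 11.51, 9.33, 10.98, 10.04 and 10.21, against 9.89, 10.02, 9.51, 9.08 and 9.35 on day 4, and its difference of 0.84 ± 0.34 (SE) was not called (adjusted p = 0.059). INSIG2 did not differ beyond its spread on the probe set used (0.08), while another of its 3 probe sets was higher on day 11 by 0.67 (adjusted p = 0.000113).

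The uptake and efflux genes were higher on day 11 too. SCARB1, the receptor that takes cholesterol esters from HDL, read 12.59, 12.86, 12.85, 12.84 and 12.73 on day 4 and 13.52, 13.39, 13.46, 13.28 and 13.62 on day 11. The groups lay apart, by 0.68 ± 0.08 (SE), adjusted p = 3.49e-07. NPC2 and NPC1, which pass lipoprotein cholesterol out of lysosomes, were higher by 0.73 ± 0.10 (SE), adjusted p = 2.49e-06, and by 0.47 ± 0.13 (SE), adjusted p = 0.00678. APOE, the carrier that accepts cholesterol leaving cells, read 10.24, 10.09, 10.25, 10.29 and 10.34 on day 4 and 11.56, 11.07, 12.06, 12.20 and 12.21 on day 11. Every mature gland was above every young one, and the difference was 1.58 ± 0.17 (SE), 2.98-fold, adjusted p = 5.91e-08. The LXR genes differed less, NR1H3 by 0.39 (adjusted p = 0.014) and NR1H2 by 0.28 (adjusted p = 0.0084). OSBP, an oxysterol binding protein that moves sterol between membranes, did not differ beyond its spread (-0.02, adjusted p = 0.918).

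Macrophages are also known to make APOE. Over 10 macrophage markers, the mean per array, centred on each gene's mean over the 30 arrays, ran from -1.24 to -1.04 in the day 4 controls and from -0.37 to 0.36 in the day 11 controls, and 5 of the 10 were higher on day 11. For 7 luteal cell markers it lay between -0.07 and 0.16 in the young controls and between 0.33 and 0.66 in the mature ones, with 5 of the 7 higher on day 11 and 1, INHA, lower (-0.96). Also higher on day 11 were 4 of 8 T and NK cell markers and 5 of 8 endothelial markers, while 3 of 3 markers of dividing cells and 2 of 3 neutrophil markers were lower. Of 8 fibroblast and mural cell markers 3 were higher and 3 lower. The part of these in the differences of the members was not tested.

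**Figure D1:**
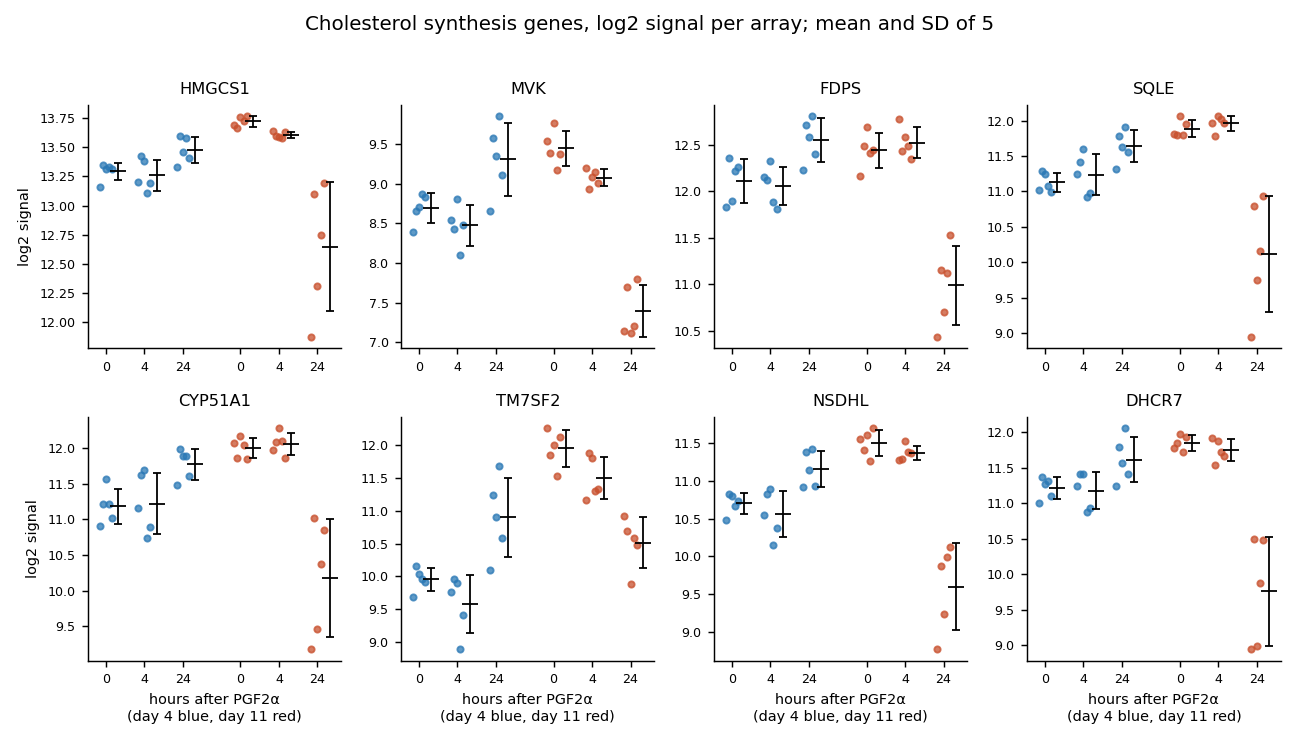
Log2 signal of 8 synthesis genes in each of the 30 arrays (points) with the mean and SD of 5 arrays (bars), against hours after PGF2α, day 4 in blue and day 11 in red; each panel has its own axis, which does not start at 0. The 5 arrays of day 11, 24 h lie below the day 11, 0 h arrays in every panel, and the day 4, 24 h means lie above the day 4, 0 h means.

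On day 11 nearly all synthesis genes were lower 24 h after PGF2α. Of the 30 members, 23 fell and 4 rose at 24 h, against 20.0% of all genes called lower and 17.9% called higher. Of the 18 synthesis genes, 17 fell, each without overlap between the 5 treated and the 5 control arrays, where 14.4% of all genes were lower without overlap, and the median difference over the 18 was -1.72 beside -0.01 for all genes. The exception was GGPS1, with a difference of -0.23 ± 0.10 (SE) and overlapping groups (adjusted p = 0.0865). None of the 17 calls was lost under any alternative tried.

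The acetyl supply genes fell together. AACS read 9.49, 9.41, 9.86, 9.04 and 9.59 in the controls and 7.05, 7.58, 7.44, 7.62 and 7.89 at 24 h, a gap of more than 1 unit between the closest arrays. It fell by 1.96 ± 0.16 (SE), or 3.89-fold, with an adjusted p = 1.69e-10. Its second, dimmer probe set fell by 0.70 (adjusted p = 0.0014). ACAT2 fell by 1.54 ± 0.17 (SE), adjusted p = 2.57e-08, and ACLY by 1.44 ± 0.14 (SE), adjusted p = 2.78e-09.

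In the mevalonate stretch the kinase MVK and the decarboxylase MVD moved most. MVK read 9.53, 9.38, 9.76, 9.17 and 9.37 in the controls and 7.14, 7.70, 7.12, 7.21 and 7.79 at 24 h. It fell by 2.05 ± 0.17 (SE), 4.15-fold, adjusted p = 2.3e-10. All 3 of its probe sets were called lower, with differences from -2.20 to -0.74. MVD fell by 1.84 ± 0.16 (SE), adjusted p = 3.87e-10, and FDPS by 1.45 ± 0.16 (SE), adjusted p = 2.59e-08. FDPS stood at 12.17, 12.49, 12.69, 12.42 and 12.44 in the controls and at 10.44, 11.16, 10.71, 11.13 and 11.53 at 24 h. PMVK, the kinase between MVK and MVD, fell by 0.98 ± 0.17 (SE), adjusted p = 2.78e-05, the smallest fall of the 17.

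For HMGCS1 the size of the fall depended on the probe set. On the brightest one it read 13.69, 13.67, 13.76, 13.72 and 13.77 in the controls, a spread of 0.04 (SD), and 11.87, 13.10, 12.31, 12.75 and 13.19 at 24 h. The fall was 1.08 ± 0.15 (SE), 2.11-fold, adjusted p = 1.3e-06. Its other probe set fell by 2.83 ± 0.35 (SE), adjusted p = 2.48e-07, and the mean of both gave -1.96. The direction was shared, and the brighter probe set lay near the top of the range of values.

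All 9 squalene and sterol genes fell, with a median of -1.82. DHCR7 read 11.77, 11.85, 11.98, 11.72 and 11.93 in the controls and 8.94, 10.50, 8.99, 9.88 and 10.48 at 24 h. Its fall of 2.09 ± 0.22 (SE), 4.27-fold, was the largest on the probe sets used, with an adjusted p = 1.6e-08, close to those of MVK, EBP and INSIG1. EBP fell by 2.02 ± 0.19 (SE), adjusted p = 1.94e-09, from 10.03, 10.27, 10.56, 10.07 and 10.61 to 7.97, 8.52, 7.73, 8.52 and 8.71. NSDHL fell by 1.91 ± 0.18 (SE), adjusted p = 2.62e-09, and CYP51A1 by 1.82 ± 0.24 (SE), adjusted p = 9.07e-07. FDFT1, SQLE, LSS, TM7SF2 and MSMO1 fell by 1.82, 1.77, 1.67, 1.44 and 1.18. FDFT1 and LSS each had a second bright probe set that fell by 1.81 and 1.70, and each another, dimmer one that was not called, at -0.02 and 0.01.

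The spread was widest in the mature glands at 24 h. The median SD of the 18 synthesis genes was 0.44 at day 11, 24 h, against 0.15 to 0.29 in the other 5 groups. Replicate 1 was the lowest array for 13 of the 18 genes, replicate 3 was among the lowest 2 for 17, and replicate 5 was the highest for 12. SQLE, for example, read 8.94, 10.80, 9.74, 10.16 and 10.93 there, and 11.82, 11.80, 12.06, 11.79 and 11.96 in the controls. Most genes of the route thus had the same glands at the bottom and the top of the group.

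**Figure D2:**
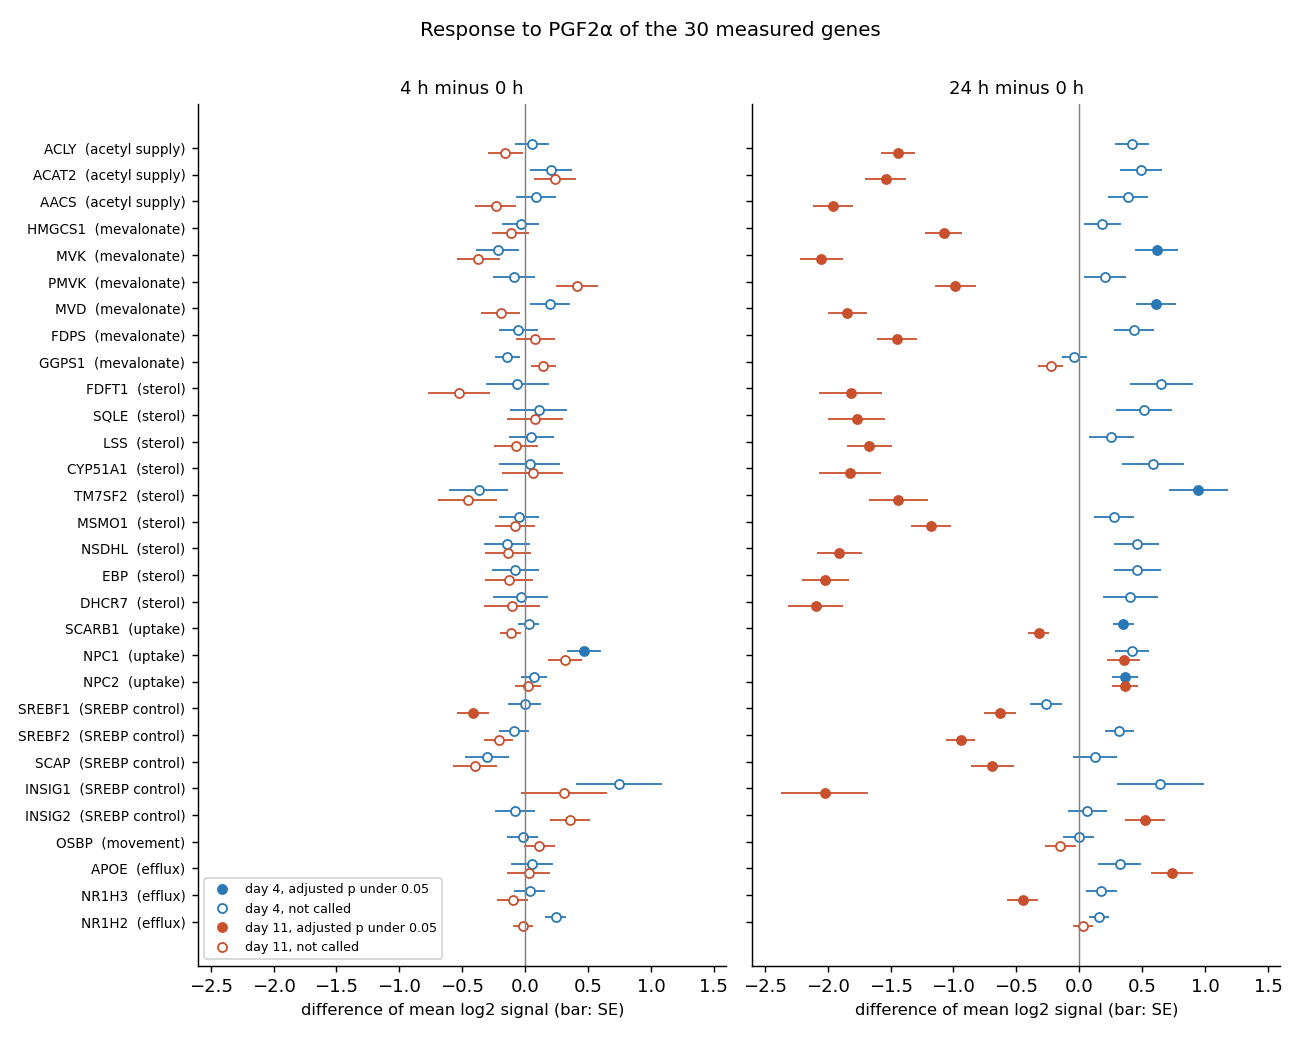
Response to PGF2α of the 30 measured genes, as the difference of mean log2 signal between treated and 0 h arrays (circles, bars are the SE from limma), at 4 h on the left and 24 h on the right, with day 4 in blue and day 11 in red and filled circles for an adjusted p under 0.05. At 4 h nearly all circles lie near 0 and are open; at 24 h the day 11 circles of 17 of 18 synthesis genes are filled and lie between -2.09 and -0.98, while the day 4 circles of the same genes lie between 0.18 and 0.95.

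Genes of SREBP control fell with the enzymes. SREBF2 read 9.70, 9.89, 9.87, 9.78 and 9.61 in the day 11 controls and 8.72, 9.09, 8.41, 8.84 and 9.09 at 24 h, with no overlap. It fell by 0.94 ± 0.12 (SE), 1.92-fold, adjusted p = 2.53e-07. INSIG1, itself a well known SREBP target, fell by 2.02 ± 0.34 (SE), 4.07-fold, adjusted p = 3.19e-05, to 7.10, 9.22, 8.22, 8.65 and 8.75. SCAP fell by 0.69 ± 0.17 (SE), adjusted p = 0.00272, with overlap, and 2 of its 4 probe sets were not called. SREBF1 fell by 0.63 ± 0.13 (SE), adjusted p = 0.000324, and 3 of its 4 probe sets were called lower. As means of all their probe sets the values were -0.58 for SREBF2, -0.30 for SCAP and -0.41 for SREBF1, all still called.

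INSIG2 was the control gene that rose. It read 8.39, 8.13, 7.70, 8.45 and 8.27 in the controls and 8.33, 9.04, 8.65, 8.69 and 8.83 at 24 h, with overlap through the first treated array. The rise was 0.52 ± 0.16 (SE), adjusted p = 0.0123. Its probe sets disagreed: a second rose by 0.59 (adjusted p = 0.0286), and the last differed by -0.09 (adjusted p = 0.66). The call was lost with the mean of the probe sets or without day 11, 0 h replicate 3 (adjusted p up to 0.074).

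Uptake and efflux went other ways. SCARB1 fell, but little: from 13.52, 13.39, 13.46, 13.28 and 13.62 to 13.17, 13.13, 13.04, 13.13 and 13.19, a difference of -0.32 ± 0.08 (SE), 1.25-fold, adjusted p = 0.00342, with no overlap. NPC2 rose by 0.36 ± 0.10 (SE), adjusted p = 0.00763, from 11.18, 11.14, 11.37, 11.52 and 11.33 to 11.59, 11.68, 11.58, 11.83 and 11.67, again with no overlap. NPC1 was higher by 0.35 ± 0.13 (SE) at an adjusted p = 0.0478, a call lost in 11 of 19 alternatives (adjusted p up to 0.174). These were quantile normalization, subtraction of array medians, array weights, the 10 arrays alone, both arrays that stood apart left out, and 6 of the 10 fits without a single array: controls 1 and 2 and treated arrays 1, 3, 4 and 5. NPC2 therefore differed in direction from the plasma membrane receptor SCARB1, and NPC1 did so only with the unsteady call just described. Each of these genes changed by less than any of the 17 enzymes that fell.

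APOE rose at 24 h. Its controls read 11.56, 11.07, 12.06, 12.20 and 12.21 and the treated glands 12.28, 12.49, 12.56, 12.52 and 12.94, so that the highest control lay just under the lowest treated gland. The difference was 0.74 ± 0.17 (SE), 1.67-fold, adjusted p = 0.0011. Of the LXR genes, NR1H3 fell by 0.45 ± 0.12 (SE), adjusted p = 0.00593, without overlap, and NR1H2 did not differ beyond its spread (0.03, adjusted p = 0.841). OSBP differed by -0.15 and was not called (adjusted p = 0.41).

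**Figure D3:**
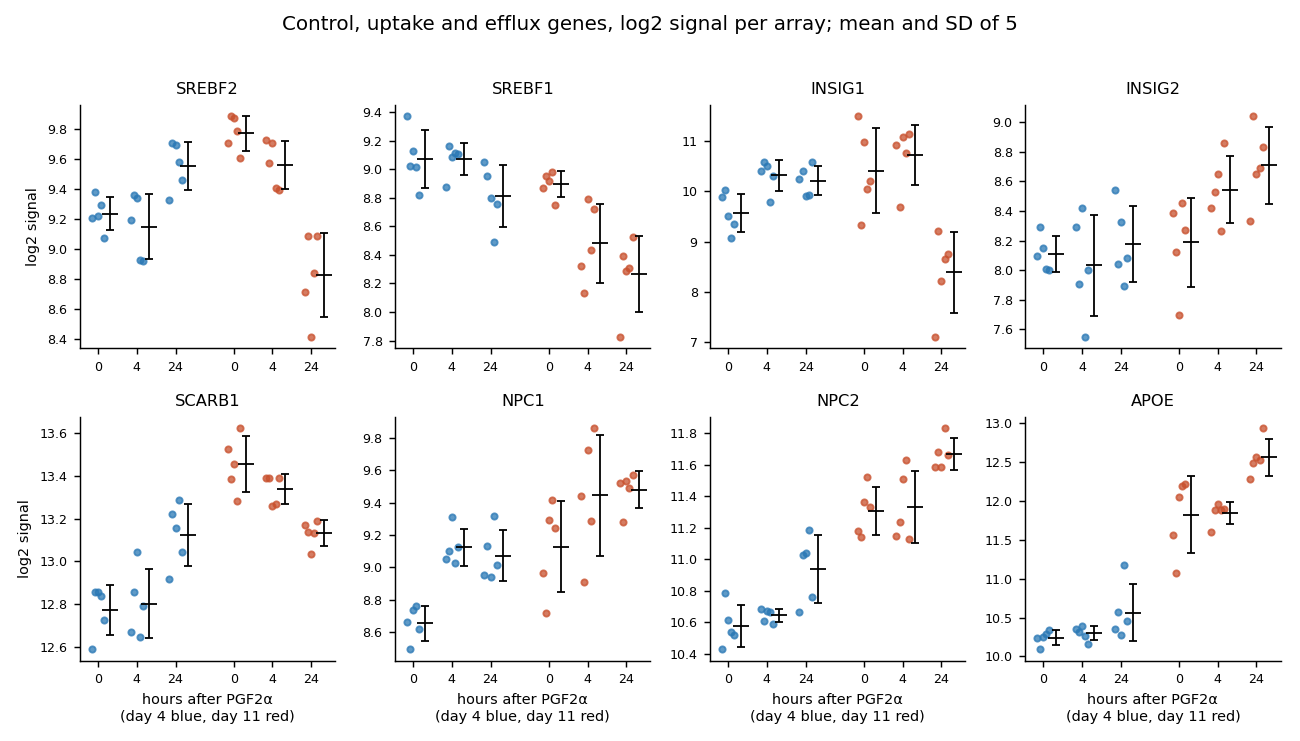
Log2 signal of 8 genes of SREBP control, uptake and efflux in each array (points) with the mean and SD of 5 arrays (bars), against hours after PGF2α, day 4 in blue and day 11 in red; each panel has its own axis, which does not start at 0. At day 11, 24 h SREBF2, SREBF1 and INSIG1 lie below their controls, APOE and NPC2 above them, and SCARB1 a little below.

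Markers of the tissue's cell types moved in the same glands. All 7 luteal cell markers fell on day 11 at 24 h, and their mean per array ran from -1.51 to -0.58 against 0.33 to 0.66 in the controls, with replicate 1 lowest. Of 10 macrophage markers 7 rose, and their mean ran from 1.40 to 2.13 against -0.37 to 0.36. Of 8 T and NK cell markers 7 rose (0.52 to 1.38 against -0.24 to 0.09), and 3 of 3 neutrophil markers rose (0.95 to 2.75 against -2.02 to -1.22). Of 8 endothelial markers 4 fell (-0.10 to 0.07 against 0.09 to 0.36). Within the luteal list the falls ran from 0.60 for INHA to 2.32 for HSD3B1, an enzyme of progesterone synthesis, with a median of -1.21 beside -1.72 for the synthesis genes. The part of these shifts in the falls of the enzymes and in the rise of APOE, NPC1 and NPC2 was not tested.

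**Figure D4:**
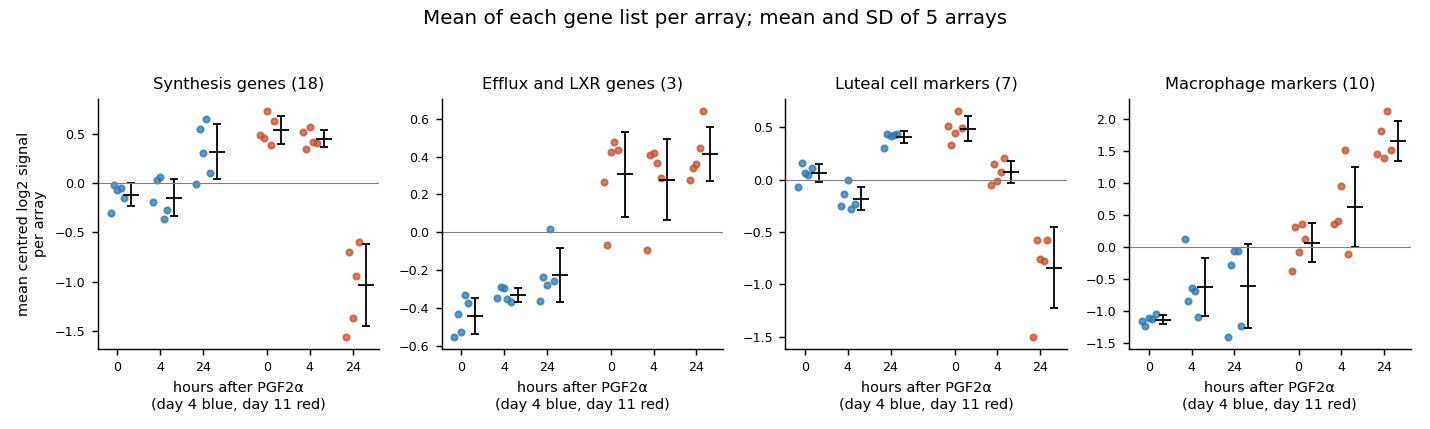
Mean per array of the centred log2 signals (each gene minus its mean over the 30 arrays) of 18 synthesis genes, 3 efflux and LXR genes, 7 luteal cell markers and 10 macrophage markers (points), with the mean and SD of 5 arrays (bars), against hours after PGF2α, day 4 in blue and day 11 in red. At day 11, 24 h the synthesis mean is -1.04 and the luteal marker mean -0.84, both the lowest of the 6 groups, while the macrophage mean of 1.66 is the highest.

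On day 4 most synthesis genes had a positive difference at 24 h. Of the 30 members 5 rose and none fell, against 3.03% of all genes called higher and 4.73% called lower. Among the 18 synthesis genes all but GGPS1 had a positive difference and 3 were called, with a median of 0.45 beside 0.00 for all genes. The calls rested on few arrays: in a fit to the 10 arrays of the comparison alone limma called 0 of the 30 (20 at an unadjusted p under 0.05), and without day 4, 24 h replicate 4 it called 0 as well (12 at an unadjusted p under 0.05). The count was 1 without treated replicate 2, 2 without control replicate 1, and 3 without control replicate 3 or treated replicate 3.

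TM7SF2 rose most, from 9.69, 10.16, 10.04, 9.96 and 9.91 to 10.09, 11.23, 10.91, 11.68 and 10.59. Only the first treated array lay within the range of the controls. The difference was 0.95 ± 0.23 (SE), adjusted p = 0.0157, and it was lost without treated replicate 2 or 4 (adjusted p up to 0.0871). MVK rose by 0.62 ± 0.17 (SE), adjusted p = 0.0292, and MVD by 0.61 ± 0.16 (SE), adjusted p = 0.0196, the latter without overlap, from 9.06, 9.24, 9.24, 9.42 and 9.30 to 9.49, 10.12, 9.77, 10.31 and 9.63. MVK was lost in 7 of 19 alternatives (adjusted p up to 0.153) and MVD in 4 (up to 0.107). SCARB1 rose by 0.35 ± 0.08 (SE), adjusted p = 0.0128, from 12.59, 12.86, 12.85, 12.84 and 12.73 to 12.92, 13.22, 13.15, 13.28 and 13.04, without overlap. NPC2 rose by 0.36 ± 0.10 (SE), adjusted p = 0.0353, and was lost in 8 of 19 alternatives (adjusted p up to 0.162), while SCARB1 was lost in 2 (up to 0.0799).

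Several enzymes were short of the threshold with groups that did not overlap, as 3.35% of all genes were higher without overlap: ACLY (0.42, adjusted p = 0.0713), SQLE (0.51, adjusted p = 0.209), NSDHL (0.46, adjusted p = 0.155) and MSMO1 (0.28, adjusted p = 0.397). NPC1 was also without overlap, at 0.42 (adjusted p = 0.0673). Of the other members, FDFT1 and CYP51A1 differed by 0.65 and 0.59 with overlap, APOE by 0.32, and SREBF1 by -0.26.

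Here too the glands kept much the same order from gene to gene. For the 18 synthesis genes, replicate 1 was lowest in 15 and replicates 1 and 5 were among the lowest 2 in 17 and 18, while replicate 4 was highest in 15. Replicate 1 is the array that had its place between the young controls on the first principal component, and its synthesis mean of -0.01 lay just above the range of the controls (-0.30 to -0.02), with replicate 4 at 0.65. Without replicate 1 limma called 8 members, with ACLY, ACAT2 and FDPS added to the 5, and without both arrays that stood apart 10, with EBP and SREBF2 added as well. In these glands 2 of 7 luteal markers rose (mean of the list 0.40 against 0.06), and 3 of 3 markers of dividing cells fell. The mean of the dividing cell markers was 1.76, -0.43, 0.27, -2.03 and 0.88 in treated replicates 1 to 5, against 1.69 to 2.10 in the controls. That order of the glands was the reverse of the order of their synthesis means. The macrophage mean was -1.41, -0.28, -0.06, -0.05 and -1.23 in treated replicates 1 to 5, against -1.24 to -1.04 in the controls. Replicates 2, 3 and 4, with the 3 highest synthesis means, were thus also those with the low dividing cell means and the high macrophage means. Of the 10 macrophage markers limma called 0 (3 at an unadjusted p under 0.05). The part of these in the members' values was not tested.

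The stage difference of the 24 h response was tested directly as the interaction, the day 11 response minus the day 4 response. Of the 30 members 22 had a lower response on day 11 and none a higher one, against 15.0% and 14.8% of all genes. The 22 held 17 of the 18 synthesis genes, all but GGPS1, with a median over the 18 of -2.31 beside 0.01 for all genes. All 22 calls were kept in every alternative. Cell markers also differed in this test. Of 7 luteal cell markers 6 had a lower response on day 11, with a median of -1.68, as had 2 of 8 endothelial markers. A higher one was called for 5 of 10 macrophage, 2 of 3 neutrophil, 2 of 8 T and NK cell and 3 of 3 dividing cell markers. The part of these in the interactions of the members was not tested.

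The widest gaps were those of MVK and INSIG1. MVK changed by 0.62 on day 4 and by -2.05 on day 11, an interaction of -2.67 ± 0.24 (SE), 6.36-fold, adjusted p = 6.51e-09. INSIG1 gave -2.67 ± 0.49 (SE), adjusted p = 0.000142, with a larger error. DHCR7, EBP, FDFT1 and MVD gave -2.50, -2.48, -2.47 and -2.45. TM7SF2, with the largest day 4 rise, gave -2.39 ± 0.33 (SE), adjusted p = 4.03e-06, and among the called enzymes PMVK and HMGCS1 had the smallest values, -1.19 and -1.26. The mean of all probe sets gave -2.39 for HMGCS1, -1.58 for FDFT1 and -1.22 for LSS.

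Outside the enzymes the interaction was called for SREBF2 (-1.26 ± 0.16, SE, adjusted p = 1.56e-06), SCAP (-0.82 ± 0.25, SE, adjusted p = 0.0154, and -0.41 as the mean of its probe sets), SCARB1 (-0.67 ± 0.12, SE, adjusted p = 8.53e-05) and NR1H3 (-0.63 ± 0.18, SE, adjusted p = 0.00925). SCARB1 rose on day 4 and fell on day 11. For NPC2, NPC1 and APOE no stage difference passed the test: NPC2 changed by 0.36 on both days (interaction 0.00, SE 0.15), NPC1 gave -0.06 with an SE of 0.19, and APOE gave 0.42 with an SE of 0.24 (adjusted p = 0.242). These values do not show that the responses were alike.

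At 4 h few members were called on either day. The median difference of the 18 synthesis genes was -0.04 on day 4 and -0.11 on day 11. On day 4, 1 of 30 members rose and none fell, a count near the 3.29% of all genes called higher (1.99% were called lower). Limma called 0 of the 18 synthesis genes on day 4 (0 at an unadjusted p under 0.05). The 1 was NPC1, from 8.67, 8.49, 8.74, 8.76 and 8.62 to 9.05, 9.10, 9.31, 9.03 and 9.13, without overlap. It rose by 0.47 ± 0.13 (SE), adjusted p = 0.0419, a call lost in 10 of 19 alternatives (adjusted p from 0.00761 to 0.128): array medians subtracted, and 9 of the 10 fits without a single array, all but that without treated replicate 4. NR1H2 was the other member without overlap, at 0.24 (adjusted p = 0.0957), where 4.10% of all genes were higher without overlap, and INSIG1 had the widest difference, 0.75 ± 0.34 (SE), without being called (adjusted p = 0.295). In the same glands the macrophage mean was -0.62 against -1.13 (1 of 10 called higher), the neutrophil mean 0.53 against -0.73 (1 of 3 higher), and 2 of 8 endothelial markers rose and 1 fell. The part of these in the NPC1 value was not tested.

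On day 11 at 4 h 1 member fell and none rose, against 13.1% and 10.1% of all genes, and limma called 0 of the 18 synthesis genes (3 at an unadjusted p under 0.05). SREBF1 fell by 0.41 ± 0.13 (SE), adjusted p = 0.0229, from 8.87, 8.95, 8.92, 8.98 and 8.75 to 8.32, 8.13, 8.79, 8.43 and 8.72. The highest treated array lay within the control range. Leaving out treated replicate 1 or 2, control replicate 4 or both arrays that stood apart ended the call, as did array weights and a fit to the 10 arrays alone (adjusted p up to 0.0857), and the mean of its probe sets gave -0.25. At 4 h 3 of 10 macrophage and 3 of 3 neutrophil markers had risen and 2 of 7 luteal markers had fallen, and their part in the SREBF1 value was not tested. HMGCS1 had no overlap at 4 h, with 13.64, 13.60, 13.59, 13.58 and 13.63 all just under the controls, but the difference was -0.11 (adjusted p = 0.667). PMVK differed by 0.41 and FDFT1 by -0.53, both with wide spread among the treated arrays and day 11, 4 h replicate 1 at the edge, 9.64 for PMVK and 9.76 for FDFT1. Neither was called (adjusted p = 0.0853 and 0.153).

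The interaction at 4 h was called for 0 of the 30 members in limma (4 at an unadjusted p under 0.05), against 0.939% of all genes with a higher and 0.459% with a lower response on day 11. None was called in any alternative. With 5 animals a group, the SE of an interaction was 0.12 to 0.49, which limits what could have been called.

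Between 4 h and 24 h the differences of the synthesis genes had opposite signs on the 2 days. On day 4 only TM7SF2, MVK, NSDHL and FDPS among them were called, and the gap between the changes on the 2 days was not tested. On day 11, 21 members fell and 2 rose, against 14.3% and 16.2% of all genes, and all 18 synthesis genes fell, GGPS1 included (-0.37 ± 0.10, SE, adjusted p = 0.00545). The median over the 18 was -1.62. INSIG1 fell by 2.33 ± 0.34 (SE), 5.03-fold, adjusted p = 7e-06, DHCR7 by 1.99, EBP by 1.89 and CYP51A1 by 1.88. The 2 that rose were APOE, by 0.71 ± 0.17 (SE), adjusted p = 0.00217, and NPC2, by 0.34 ± 0.10 (SE), adjusted p = 0.016, the latter lost in 4 alternatives (adjusted p up to 0.0639). Among the falls, that of NR1H3 (-0.35, adjusted p = 0.0406) was lost in 8 of 19 alternatives (up to 0.192). As means of all probe sets the falls were -1.55 for HMGCS1, -1.09 for AACS, -0.84 for FDFT1 and -0.43 for SREBF2, against -0.96, -1.73, -1.29 and -0.73. Between these times 5 of 7 luteal markers fell, and 5 of 10 macrophage and 5 of 8 fibroblast and mural cell markers rose; their part in the members' values was not tested.

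On day 4 between the same times 6 members rose and none fell, against 10.2% and 9.84% of all genes: TM7SF2 by 1.32 ± 0.23 (SE), adjusted p = 0.00025, MVK by 0.84 ± 0.17 (SE), adjusted p = 0.00103, and NSDHL, FDPS, SREBF2 and SCARB1 by 0.60, 0.49, 0.41 and 0.32. All 18 synthesis genes had a positive difference, with a median of 0.41. Leaving out single arrays gave counts from 3 to 10. The count was 3 without day 4, 24 h replicate 2 or day 4, 4 h replicate 4 or 5, and 10 without day 4, 24 h replicate 1. The 9 other alternatives gave 8 to 12. Of 19 alternatives, FDPS was lost in 5 (adjusted p up to 0.104), NSDHL in 4 (up to 0.0782) and SREBF2 in 3 (up to 0.0604).

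Across the 6 groups, 17 of the 18 synthesis genes had their lowest mean at day 11, 24 h. TM7SF2 was the exception, lowest at day 4, 4 h (9.58) with 10.51 at day 11, 24 h. The highest mean fell at day 11, 0 h for 11 genes, at day 11, 4 h for ACAT2, PMVK, SQLE and CYP51A1, at day 4, 24 h for FDPS and EBP, and at day 4, 0 h for GGPS1. The group mean of the mature gland at 24 h lay below that of the untreated young gland for 17 of the 18, and the mean of the young gland at 24 h lay below that of the untreated mature gland for 14. The mean of the 18 per array ran from -0.30 to -0.02 at day 4, 0 h, from -0.36 to 0.06 at 4 h and from -0.01 to 0.65 at 24 h. On day 11 it ran from 0.39 to 0.73 at 0 h, from 0.35 to 0.56 at 4 h and from -1.56 to -0.60 at 24 h. The mean of the 3 uptake genes had a different order, lowest at day 4, 0 h (-0.44) and highest at day 11, 24 h (0.32). That high mean was that of NPC1 and NPC2. SCARB1 had its highest group mean at day 11, 0 h (13.45) and stood at 13.13 at day 11, 24 h. The mean of the 3 efflux genes was -0.44 at day 4, 0 h and 0.41 at day 11, 24 h, but the genes differed: NR1H3 had its lowest group mean at day 11, 24 h, under the 8.05 of day 4, 0 h, and NR1H2 ran only from 9.09 to 9.13 over the 3 mature groups, so that the high mean at day 11, 24 h was that of APOE.

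Other genes of the same biology, outside the 38, were counted from further lists. Of 9 measured genes of fatty acid synthesis, which SREBP1 is known to drive, 7 fell on day 11 at 24 h and none rose. ACSS2, which makes acetyl-CoA from acetate, fell by 2.23, ELOVL6 by 2.02, SCD by 1.48 and FASN by 1.40. The interaction at 24 h was called for all 9, each lower on day 11, against 15.0% of all genes lower. In untreated glands 7 of the 9 were higher on day 11, against 17.9% of all genes, with ACSS2 higher by 1.73. ACSS2 was also the 1 of the 9 that rose on day 4 at 24 h (0.68, adjusted p = 0.0454), where 3.03% of all genes rose. At 4 h none of the 9 was called on day 4 (1 at an unadjusted p under 0.05 in limma), against 3.29% of all genes higher and 1.99% lower. On day 11 at 4 h 3 fell, against 13.1% of all genes. TMEM97, a sterol-regulated membrane protein that binds NPC1, fell on day 11 by 1.80 ± 0.19 (SE), adjusted p = 2.5e-08. In all 3 of 6 measured genes of sterol control fell, and PAQR3, which tethers SCAP at the Golgi, rose by 0.65.

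Of 11 uptake and storage genes 6 rose and 2 fell on day 11 at 24 h; for all the further lists the shares of all genes in this comparison were the 17.9% higher and 20.0% lower given above. CD36, a scavenger receptor, rose by 2.33, PLIN2, a coat protein of lipid droplets, by 1.51, VLDLR, a lipoprotein receptor, by 1.21, and LIPA, the lysosomal lipase that frees cholesterol from its esters, by 1.16. LIPE, the lipase that does so in the cytosol, fell by 0.95. Of 9 sterol carriers and oxysterol enzymes 5 rose and 3 fell, with CH25H up by 2.46 ± 0.31 (SE), adjusted p = 3.72e-07, and CYP27A1 up by 1.30, both of which make oxysterols. Of 7 efflux genes and LXR targets 3 rose and 2 fell: PLTP rose by 0.94 and LCAT by 0.61, and LPCAT3 fell by 1.17 and ABCA7 by 0.89. CD36 and CH25H are also expressed by macrophages, and 7 of 10 macrophage markers rose in the same glands. The part of this in the values of the further genes was not tested. All 4 measured genes of steroid use of cholesterol fell, HSD3B1 by 2.32, STAR by 1.46, FDX1 by 0.75 and CYP11A1, which cuts the cholesterol side chain, by 0.72. These 4 are also among the 7 luteal cell markers above. CH25H already differed by 2.65 at 4 h on day 11 and by 1.20 at 4 h on day 4, the highest values of its list. On day 11 at 4 h 2 genes of that list rose and 1 fell, and 3 uptake and storage genes rose. Of the efflux genes and LXR targets 1 rose and 3 fell. The shares of all genes there were 10.1% higher and 13.1% lower. The part of the cell markers in these values was not tested.

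On day 4 at 24 h 3.03% of all genes were called higher and 4.73% lower. Of the 11 uptake and storage genes 2 rose there: SCARB2 by 0.43 and LRPAP1, the receptor-associated chaperone of the LDL receptor family, by 0.42. CYP27A1 also rose, by 0.52. In untreated glands 7 of the 11 uptake and storage genes were higher on day 11 and 1 was lower, against 17.9% and 26.5% of all genes. CD36 was higher by 2.90, MYLIP, which marks lipoprotein receptors for breakdown, by 1.27, and PLIN2 was lower (-0.55). Of the 7 efflux genes and LXR targets 4 were higher on day 11, with PLTP at 1.18 and ABCA7 at 0.91.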

How the data were processed

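RNA from 30 corpora lutea, 1 array per heifer and separate animals per the labels, was measured on Affymetrix bovine arrays. Values are RMA signals on a log2 scale, 1 per probe set, made by the authors per the submitters' processing notes (no version given) and used as deposited. Groups and replicate numbers came from the sample titles. Of 24128 probe sets, 112 controls were left out; 13292 of the 24016 tested carry 1 symbol in the platform annotation, 86 several and 10638 none. A mean per group was fitted to all 30 arrays in limma 3.58.1 (R 4.3.3; 24 residual degrees of freedom, 28.2 moderated), with Benjamini-Hochberg adjustment over all probe sets in each of 9 contrasts. The fit was tested on simulated data. Replicate numbers have no stated meaning in the labels. Deviations of same-numbered arrays correlated over 0.1 in all 5 pairs of day 4, 0 h with day 4, 4 h. In no other comparison did every pair pass, though most did for day 11, 0 h with day 11, 4 h. The number of arrays limits the precision. The members, lists and tests were chosen with earlier results of these data known. Named were all members on the array, with full statistics for up to 4 called members per role and contrast and for called interactions, and up to 4 called genes of each further list. Alternatives were quantile normalization, array medians subtracted, no dim probe sets, moderation with trend and robust settings, array weights, a replicate block, the arrays of the contrast alone, the mean of a gene's probe sets, and each array left out; leaving out both arrays that stood apart was added after seeing the data. Genome positions and sequences were not used here.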

Additional observations from a re-analysis of the deposited data

Results flagged for a closer look

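In 7 of 180 groups of 5 arrays, 1 array stood far from the other 4 by Dixon's ratio (its gap over the range of the group, beyond 0.71), which chance alone gives in about 1 group in 20. They were HMGCS1 at day 4, 0 h (replicate 1 lowest, 0.802), NPC1 at day 11, 24 h (replicate 2 lowest, 0.722), SREBF1 at day 4, 4 h (replicate 1 lowest, 0.728), INSIG1 at day 11, 4 h (replicate 2 lowest, 0.734), OSBP at day 11, 4 h (replicate 1 highest, 0.762), APOE at day 11, 4 h (replicate 1 lowest, 0.784) and NR1H3 at day 4, 4 h (replicate 1 lowest, 0.712).

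The response at 24 h differed between day 11 and day 4 in limma for 22 members, each more negative on day 11. Of acetyl supply, AACS differed by -2.35, ACAT2 by -2.03 and ACLY by -1.86. In the mevalonate stretch the differences were -2.67 for MVK, -2.45 for MVD, -1.89 for FDPS, -1.26 for HMGCS1 and -1.19 for PMVK. In the sterol stretch they were -2.50 for DHCR7, -2.48 for EBP, -2.47 for FDFT1, -2.41 for CYP51A1, -2.39 for TM7SF2, -2.36 for NSDHL, -2.28 for SQLE, -1.92 for LSS and -1.46 for MSMO1. Among the other members they were -2.67 for INSIG1, -1.26 for SREBF2, -0.82 for SCAP, -0.67 for SCARB1 and -0.63 for NR1H3.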

How the results depend on the processing

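Of 107 called values of members, 91 kept their call and direction in every alternative and 0 reversed. For 4 h on day 4 (1 called), the count was 0 with array medians subtracted (3 at an unadjusted p under 0.05 in limma), 2 with array weights, 2 with the arrays of the contrast alone, and 0 to 1 leaving out single arrays. For 4 h on day 11 (1 called), it was 0 with array weights, 0 with the arrays of the contrast alone, 0 without both arrays that stood apart (4, 6 and 5 at an unadjusted p under 0.05 in limma), and 0 to 3 leaving out single arrays, the 3 without day 11, 4 h replicate 2 (PMVK, NPC1 and SCAP). For 24 h on day 4 (5 called), it was 9 with array weights, 0 with the arrays of the contrast alone (20 at an unadjusted p under 0.05 in limma), 10 without both arrays that stood apart, and 0 to 8 leaving out single arrays. For 24 h against 4 h on day 4 (6 called), it was 12 with array weights, 10 with the mean of probe sets, 11 without both arrays that stood apart, and 3 to 10 leaving out single arrays. The cause of these changes was not tested. The median interaction of the synthesis genes at 24 h ranged from -2.41 to -2.07 leaving out single arrays, the latter without day 11, 24 h replicate 1. The other counts ranged from 20 to 24 for the untreated stages, 26 to 28 for 24 h on day 11, 21 to 24 for 24 h against 4 h on day 11 and 22 to 23 for the 24 h interaction.

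With a replicate block the counts were 22, 1, 1, 6, 27, 8, 23, 0 and 22, in the order untreated stages, 4 h on day 4, 4 h on day 11, 24 h on day 4, 24 h on day 11, 24 h against 4 h on day 4 and on day 11, and the interactions at 4 h and 24 h. Deviations of same-numbered arrays correlated at -0.20 to 0.26 and over 0.1 in 24 of 75 pairs, but in all 5 pairs of day 4, 0 h with day 4, 4 h (0.15 to 0.21) and in 4 of 5 of day 11, 0 h with day 11, 4 h. The block kept the 1 call at 4 h on day 4, that of NPC1. For day 11, 0 h with day 11, 4 h the correlations ran from 0.06 to 0.23. What same-numbered arrays share is not stated in the labels and was not tested. Depth has no meaning for arrays; the limits here are 5 animals a group, compression of bright probe sets and no saline group at 4 h or 24 h.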
